A study of Arabidopsis thaliana with 18 samples.

Results

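The late fallers are 144 of 22746 measured probe sets whose signal in developing Arabidopsis seeds held or drifted until 10-11 days after flower opening and was lower at 12-13 d. They were selected on the stage differences themselves. The difference between 12-13 d and 10-11 d, called the second step here, had to be -0.8 or lower on the log2 scale in both C24 and Col-0, and the difference between 10-11 d and 8-9 d, called the first step, had to lie above -0.8 and below 0.5 in both. In the platform annotation 68 of the 144 probe sets carry 1 gene each, for 68 different loci, 2 carry several genes and 74 are not listed, so members without a single gene are given by count and range.

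Seeds of the accessions C24 and Col-0, untreated plants grown with 16 h of light a day, were dissected from siliques picked 8-9, 10-11 and 12-13 d after flower opening and hybridised to Affymetrix arrays. Each of the 6 groups had 3 arrays (18 in all), each array carried RNA of seeds from 48 siliques of 6 plants, and every pool drew on the 2 growth experiments. The titles call the 3 arrays of a group biological replicates, but they do not say that the pools came from different plants. The p-values cover only how much pools vary. The titles decide the accession of each sample, and the genotype characteristic gives the same one in all 18. The source name gives the other accession in all 18, so the sign of every C24 minus Col-0 difference below rests on the titles. Array probes can match the C24 sequence less well than that of Col-0, whose genome is the reference, and the part this plays in accession differences was not tested. Values are log2 signals after robust multi-array averaging (RMA), which gives all arrays nearly the same distribution, and the 3 arrays of a group correlated at 0.993 to 0.997. Whole seeds were profiled, so fewer cells of a type and less RNA per cell cannot be told apart.

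In this window the Arabidopsis embryo passes from building its organs to filling with storage oil and protein, while the seed coat forms mucilage and thickens its walls. The young embryo is green and photosynthesises, and its chloroplasts are dismantled as the seed matures. Growth needs enzymes that loosen and remodel pectin-rich cell walls, and receptor-like kinases that carry signals between neighbouring cells.

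The typical late faller had a signal above that of most probe sets until 10-11 d and lost about a log2 unit after it. Its level at 10-11 d, averaged over accessions, had a median of 8.24 against 5.88 over all probe sets, and ranged from 5.63 to 13.04. At 12-13 d the median level was 7.00, against 5.86 over all probe sets. The rule requires room to fall above the floor and so favours a higher level at 10-11 d, and nothing is read from these levels. The second step had a median of -1.05 in C24 and -1.18 in Col-0, where all probe sets had medians of -0.00 in C24 and 0.03 in Col-0. The first step had a median of -0.44 in C24 and -0.25 in Col-0, a drift allowed by the rule. It was below 0 in both accessions for 104 members, above 0 in both for 19, above 0 in C24 alone for 6 and in Col-0 alone for 15.

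**Figure D1:**
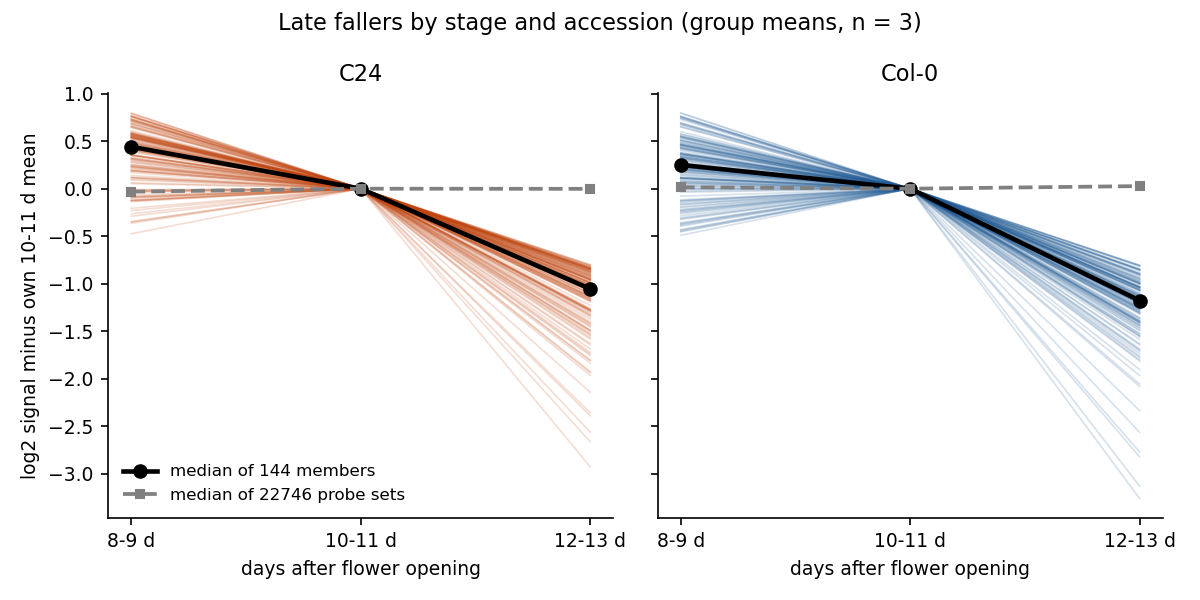
Log2 signal of each of the 144 late fallers (thin lines, means of 3 arrays) at the 3 stages, minus its own mean at 10-11 d, in C24 (left) and Col-0 (right), with the median of the members in black and of all probe sets in grey. The members' median drops by -0.44 in C24 and -0.25 in Col-0 up to 10-11 d, and then by -1.05 and -1.18.

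All 3 arrays at 12-13 d lay below all 3 arrays at 10-11 d in both accessions for 144 of 144 members, as they did for 11.4% of all probe sets. The rule used this contrast, so nothing is read from that count. The within-group SD of the members had a median of 0.150, against 0.130 over all probe sets. Among the arrays at 10-11 d, replicate 3 was low for most members in both accessions: 25 of 144 members lay above their group mean in C24 replicate 3 and 9 of 144 in Col-0 replicate 3, with median deviations of -0.08 in C24 and -0.12 in Col-0. The 3' minus 5' signal of the actin control, a measure of RNA integrity, was lower at each later stage, with means of 0.846, 0.425 and -0.282 at 8-9, 10-11 and 12-13 d in C24 and of 1.84, 1.29 and 0.934 in Col-0. The ubiquitin control was also lower at each later stage, with 0.937, 0.915 and 0.767 in C24 and 0.881, 0.523 and 0.441 in Col-0. The GAPDH control was not, with 0.940, 1.44 and 1.19 in C24 and 0.886, 1.28 and 1.77 in Col-0, and the part of RNA integrity in the falls was not tested.

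Of the 403 probe sets with a second step of -0.8 or lower in both accessions, the late fallers made up 35.7%. Another 162 had already dropped by the same margin in the first step in both accessions and are therefore left out. A first step of -0.8 or lower in C24 alone removed 59, and in Col-0 alone 11. A first step of 0.5 or higher in either accession was found for 28, of which 1 is already counted among those with a low first step. Over the 403, the first step was lower in C24 than in Col-0 for 302, with medians of -0.89 in C24 and -0.69 in Col-0.

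**Figure D2:**
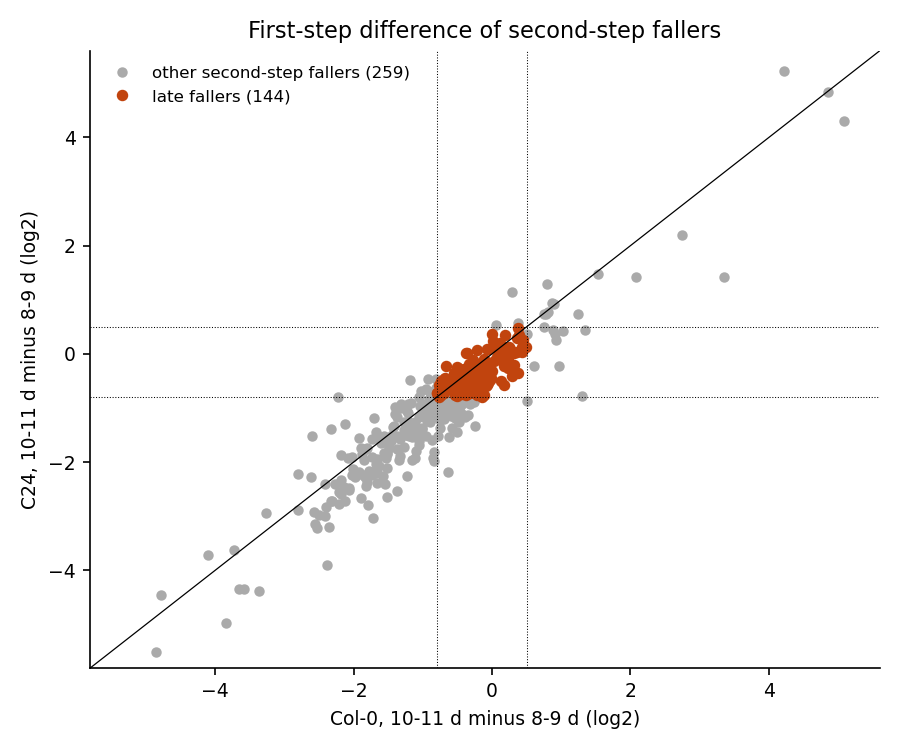
First step (10-11 d minus 8-9 d, log2) in C24 (vertical axis) against Col-0 (horizontal axis) for the 403 probe sets with a second step of -0.8 or lower in both accessions. The 144 late fallers (orange) fill the window between the dotted lines at -0.8 and 0.5, most points lie below the diagonal of equal change, and 302 of the 403 were lower in C24.

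The whole fall had nearly the same median in both accessions. By the medians most of it lay in the second step in both, and the first step took a larger part in C24 than in Col-0. From 8-9 to 12-13 d the members' median difference was -1.51 in C24 and -1.49 in Col-0. The first step was lower in C24 than in Col-0 for 103 of 144 members (71.5%), against 44.9% of all probe sets. The second step was more negative in C24 for 51 members (35.4%) and in Col-0 for 93, against 53.5% of all probe sets more negative in C24. Both steps were used to choose the members, so these are descriptions with no test.

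The largest falls among members with 1 gene belonged to genes of unlike function. A second step of -2 or lower in both accessions was found for 5 members and of -1 or lower in both for 72. AT1G12080, which encodes a small acidic protein related to vacuolar calcium-binding proteins, led the list. Its 3 arrays in C24 gave 10.45, 10.57 and 10.34 at 8-9 d, 10.05, 9.86 and 10.05 at 10-11 d, and 6.85, 7.29 and 7.03 at 12-13 d. In Col-0 they gave 10.38, 10.21 and 10.18, then 9.55, 9.86 and 9.28, then 6.58, 6.25 and 6.48. The accessions overlapped at 8-9 d, met at 9.86 at 10-11 d and were apart at 12-13 d, where C24 was higher. The second step was -2.93 in C24, a 7.60-fold lower signal, and -3.13 in Col-0, an 8.76-fold lower one.

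**Figure D3:**
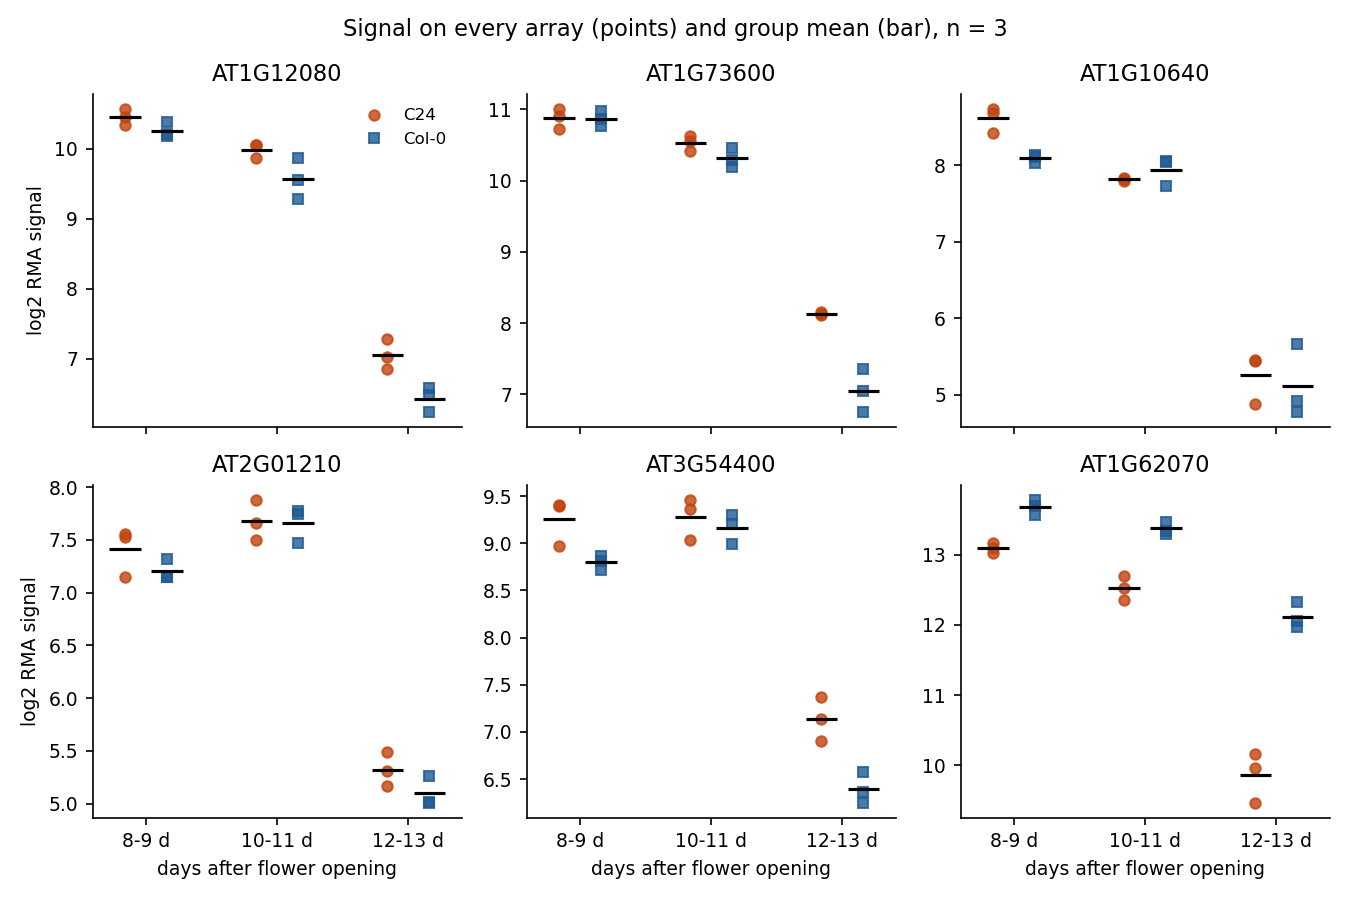
Log2 RMA signal on every array (C24 circles, Col-0 squares, set to the left and right of each stage) with the mean of 3 arrays as a bar, for the 6 late fallers with the largest mean fall among those with 1 gene. All 12-13 d arrays lie below the 10-11 d arrays of their accession, and AT1G62070 is apart between accessions at all 3 stages, with means of 9.86 in C24 and 12.11 in Col-0 at 12-13 d.

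AT1G73600, of the phosphoethanolamine N-methyltransferase family that makes the head group of phosphatidylcholine, had the most negative second step of all members in Col-0. Its C24 arrays gave 10.73, 10.90 and 11.01 at 8-9 d, 10.62, 10.55 and 10.41 at 10-11 d, and 8.12, 8.13 and 8.16 at 12-13 d. Its Col-0 arrays gave 10.77, 10.86 and 10.98, then 10.29, 10.46 and 10.19, then 7.35, 7.05 and 6.76. The accessions overlapped until 10-11 d and were fully apart at 12-13 d, with second steps of -2.39 in C24 (5.24-fold lower) and -3.26 in Col-0 (9.59-fold lower).

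AT3G54400, an aspartyl protease of the secreted type, had first steps of 0.03 in C24 and 0.37 in Col-0 and second steps of -2.14 in C24 and -2.77 in Col-0. Its arrays in C24 gave 9.39, 9.40 and 8.97 at 8-9 d, 9.46, 9.36 and 9.03 at 10-11 d, and 7.37, 7.14 and 6.90 at 12-13 d. In Col-0 they gave 8.86, 8.72 and 8.81, then 9.20, 9.30 and 8.99, then 6.57, 6.25 and 6.36. The accessions overlapped only at 10-11 d, and C24 was higher at the other stages.

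AT1G62070, for which no role is given here, lost far more signal in C24. The C24 arrays gave 13.10, 13.02 and 13.16 at 8-9 d, 12.52, 12.36 and 12.70 at 10-11 d, and 9.47, 10.16 and 9.97 at 12-13 d. The Col-0 arrays gave 13.69, 13.57 and 13.78, then 13.30, 13.47 and 13.34, then 12.32, 12.06 and 11.97. No stage overlapped between accessions, and the second step was -2.66 in C24 (6.33-fold lower) against -1.26 in Col-0 (2.39-fold lower). Signals near the top of the scale are compressed, and the part this plays in the steps of either accession was not tested.

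The roles below were assigned from textbook knowledge after values had been seen, to 55 of the 68 members with 1 gene, and no test was run on the groups. Receptor-like kinases with extracellular leucine-rich repeats, which sense peptides and other ligands at the cell surface, were 7 of the 68. Their second steps had medians of -1.44 in C24 and -1.42 in Col-0. AT2G01210 stood apart from the other 6. It gave 7.53, 7.56 and 7.15 at 8-9 d, 7.88, 7.66 and 7.50 at 10-11 d, and 5.17, 5.49 and 5.31 at 12-13 d in C24. The Col-0 arrays gave 7.15, 7.32 and 7.15, then 7.75, 7.77 and 7.47, then 5.02, 5.26 and 5.01, so the accessions overlapped at every stage. Its second step was -2.36 in C24 (5.13-fold lower) and -2.56 in Col-0 (5.91-fold lower).

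The other receptor kinases had smaller second steps in both accessions. AT5G51560 averaged 6.43 ± 0.08 at 12-13 d and 7.98 ± 0.34 at 10-11 d in C24, and 6.39 ± 0.07 and 7.80 ± 0.05 in Col-0 (SD, n = 3 each), a second step of -1.55 in C24 and -1.42 in Col-0. AT3G56370 had second steps of -1.44 in C24 and -1.64 in Col-0, AT1G75640 of -1.40 in C24 and -1.49 in Col-0, AT4G36180 of -1.28 in C24 and -1.21 in Col-0, and AT1G10850 of -1.07 in C24 and -0.95 in Col-0. AT3G28040 had a second step of -1.49 in C24, 2.81-fold lower, and a smaller one in Col-0, 2.30-fold lower, after first steps of 0.14 in C24 and 0.49 in Col-0. AT3G56370 sat at the lower edge of the first-step window, with -0.79 in C24 and -0.76 in Col-0, and was a member in 12 of the 18 analyses that each left out 1 array. AT2G45590 and AT5G37790, protein kinases outside this family, had second steps of -0.85 and -0.80 in C24 and of -0.99 and -0.85 in Col-0.

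Genes that act on pectin, the gel of the growing wall and of seed coat mucilage, gave 5 members with second-step medians of -1.16 in C24 and -1.80 in Col-0. AT1G10640, of the polygalacturonase family that cuts the pectin backbone, gave 8.74, 8.68 and 8.42 at 8-9 d, 7.82, 7.80 and 7.83 at 10-11 d, and 5.45, 5.44 and 4.88 at 12-13 d in C24. In Col-0 it gave 8.11, 8.03 and 8.13, then 8.04, 8.05 and 7.73, then 4.78, 4.92 and 5.66. C24 was higher only at 8-9 d and the accessions overlapped afterwards, so the first step was -0.80 in C24, just inside the window before rounding, and -0.15 in Col-0. The second step was -2.56 in C24 (5.91-fold lower) and -2.82 in Col-0 (7.07-fold lower).

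AT1G23205, of the family of invertase and pectin methylesterase inhibitors, showed the largest accession gap of this group at 12-13 d. Its C24 arrays gave 8.99, 9.04 and 8.94, then 9.27, 9.09 and 8.97, then 8.08, 8.24 and 8.35 over the 3 stages. Its Col-0 arrays gave 8.61, 8.41 and 8.29, then 8.94, 8.97 and 8.75, then 7.24, 7.01 and 6.69. C24 was above Col-0 on all arrays at 8-9 and 12-13 d, the ranges met at 8.97 at 10-11 d, and the second step was -0.89 in C24 against -1.90 in Col-0.

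AT3G61490, of the pectin lyase-like fold, was higher in C24 at every stage without overlap. It averaged 7.16 ± 0.10, 6.47 ± 0.12 and 5.09 ± 0.14 in C24 and 6.54 ± 0.03, 5.81 ± 0.18 and 4.56 ± 0.14 in Col-0 (SD, n = 3 each). AT1G48100, a second polygalacturonase-type gene, had second steps of -1.16 in C24 and -1.80 in Col-0, and AT3G07010, a pectate lyase, of -1.03 in C24 and -1.16 in Col-0. Of the 5, AT1G48100 and AT3G07010 had a first step above 0 in both accessions, as did AT1G23205, and the other 2 had one below 0 in both.

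**Figure D4:**
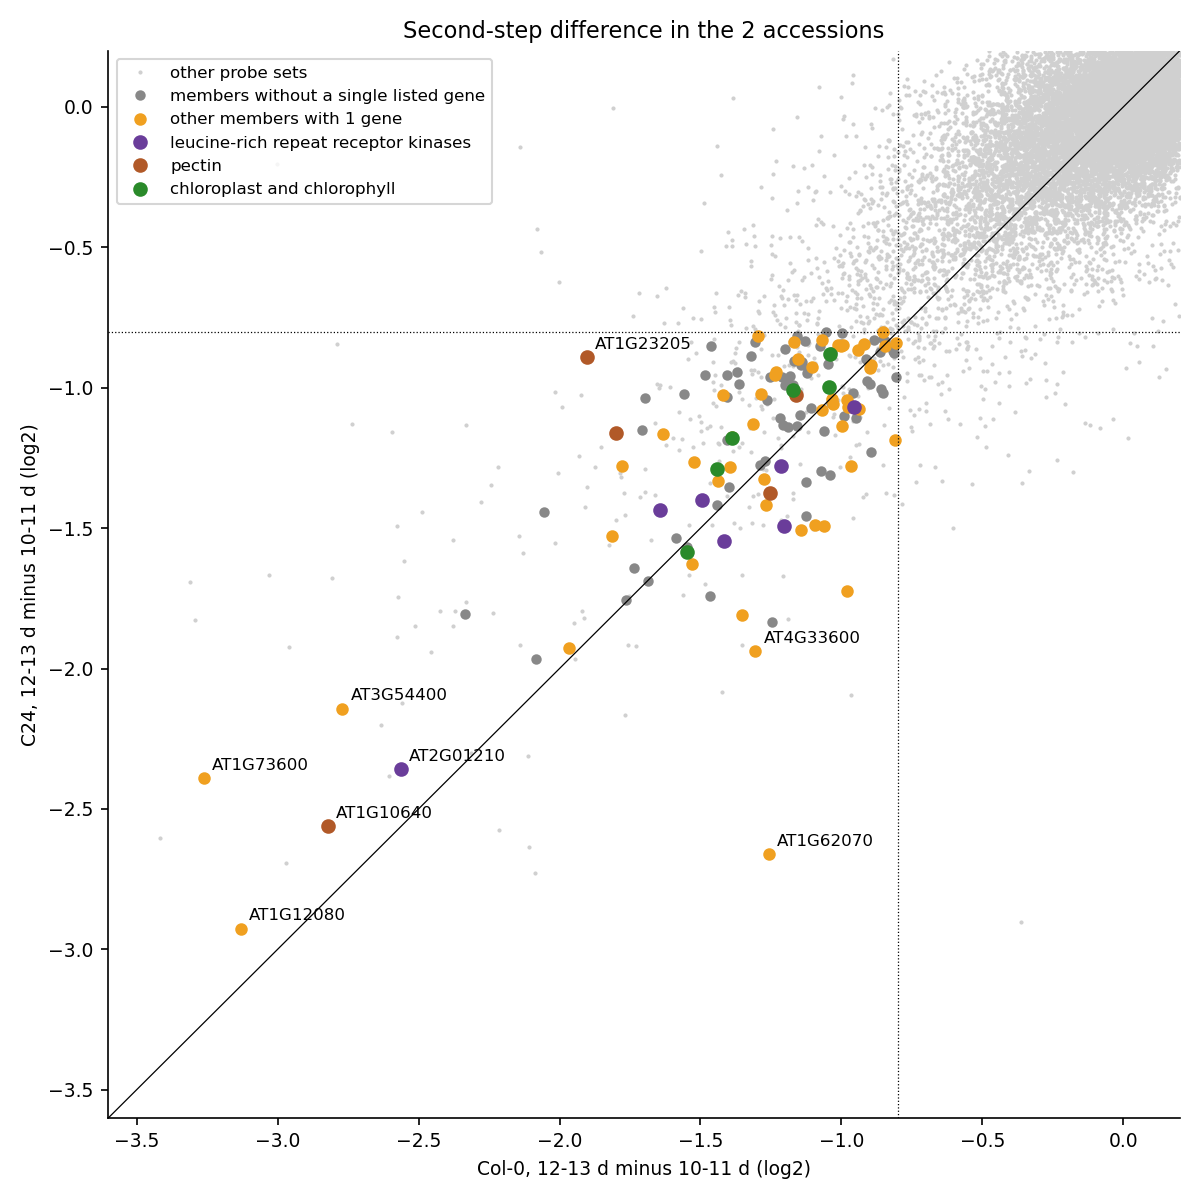
Second step (12-13 d minus 10-11 d, log2) in C24 (vertical axis) against Col-0 (horizontal axis) for the late fallers, coloured by role, and for other probe sets in light grey. Dotted lines mark -0.8, the diagonal marks equal change, 93 of the 144 members lie above it (a larger fall in Col-0), and AT1G62070 lies farthest below it.

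Other proteins of the wall and the secretory route made up 8 members, with second-step medians of -1.10 in C24 and -1.20 in Col-0. AT2G22420, a class III peroxidase, which can stiffen walls, gave 6.50, 6.32 and 5.92 at 8-9 d, 6.60, 6.05 and 6.15 at 10-11 d, and 4.82, 4.78 and 4.72 at 12-13 d in C24. In Col-0 it gave 7.58, 7.39 and 7.77, then 7.36, 7.27 and 7.03, then 6.35, 5.93 and 6.10, above C24 without overlap at every stage. EXPB3, a beta-expansin, which loosens walls, averaged 6.97 ± 0.18, 6.79 ± 0.26 and 5.95 ± 0.36 in C24 and 7.84 ± 0.13, 7.50 ± 0.18 and 6.33 ± 0.19 in Col-0 (SD, n = 3 each). Its accessions overlapped at 12-13 d alone.

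LCR69, a small cysteine-rich protein of the defensin type, had the highest signal of the members at 10-11 d averaged over accessions, 13.04, a value that also depends on the probes. Its means were 13.51 ± 0.01, 13.06 ± 0.06 and 12.11 ± 0.09 in C24 and 13.70 ± 0.11, 13.02 ± 0.15 and 11.78 ± 0.12 in Col-0 (SD, n = 3 each), close to the top of the scale. Its second step was -0.94 in C24 and -1.23 in Col-0. AT5G13140, of the Ole e 1 family of secreted proteins, had second steps of -1.18 in C24 and -1.39 in Col-0, and AT3G30300, of the O-fucosyltransferase family, of -1.13 in C24 and -1.31 in Col-0. Hydrolases of the group, AT5G10560 of the beta-xylosidase family and AT5G56590 of the family that cuts beta-glucans, had second steps of -1.08 and -0.92 in C24 and of -0.94 and -0.89 in Col-0.

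Chloroplast genes gave 6 members, with second-step medians of -1.09 in C24 and -1.28 in Col-0. AT2G26500, a small subunit of the cytochrome b6f complex that links the photosystems, gave 10.84, 10.98 and 10.59 at 8-9 d, 10.13, 10.14 and 10.16 at 10-11 d, and 8.60, 8.58 and 8.50 at 12-13 d in C24. In Col-0 it gave 11.06, 10.72 and 10.86, then 10.42, 10.50 and 10.34, then 8.84, 8.60 and 9.18. C24 was lower on all arrays at 10-11 d, overlap was seen at 8-9 d and the ranges met at 8.60 at 12-13 d, and the second steps of -1.58 in C24 and -1.55 in Col-0 were nearly equal.

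PSBW, a small subunit of photosystem II, averaged 11.39 ± 0.08, 10.85 ± 0.08 and 9.56 ± 0.15 in C24 and 11.34 ± 0.13, 11.14 ± 0.06 and 9.70 ± 0.16 in Col-0 (SD, n = 3 each). Its first step was -0.54 in C24 and -0.20 in Col-0, and its second -1.29 in C24 and -1.44 in Col-0. AT1G74470, geranylgeranyl reductase, which makes the phytol tail of chlorophyll and of tocopherols, averaged 11.68 ± 0.16, 11.10 ± 0.14 and 10.22 ± 0.05 in C24 and 11.42 ± 0.02, 11.29 ± 0.05 and 10.25 ± 0.10 in Col-0 (SD, n = 3 each). Here too the first step was the more negative in C24, -0.58 against -0.13 in Col-0. AT5G38520, which removes that tail during chlorophyll turnover, had second steps of -1.18 in C24 and -1.39 in Col-0. AT5G51010, of the rubredoxin family, had second steps of -1.01 in C24 and -1.17 in Col-0. AT1G51400, a small photosystem II protein, averaged 10.27 ± 0.11, 9.72 ± 0.08 and 8.72 ± 0.02 in C24 and 10.48 ± 0.15, 9.96 ± 0.04 and 8.92 ± 0.15 in Col-0 (SD, n = 3 each), lower in C24 at each stage.

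Other measured photosynthesis genes with the same late fall are no members. Their first step was -0.8 or lower in C24 alone or in both accessions. That margin does not separate an earlier from a later start of the fall. The first steps of the 6 chloroplast members ranged from -0.66 to 0.23 over both accessions. Of 52 listed nuclear loci of light harvesting, the photosystems and electron transport, 8 were measured by a probe set with 1 gene. PSBW alone was a late faller, 5 had a second step of -0.8 or lower in both accessions but too negative a first step, and PSBY and LHCB4.3 did not reach the second-step margin in both. PSAN, PSAE-1 and ATPC1 missed the window in C24 alone, with first steps of -0.83, -1.10 and -0.83 in C24 and of -0.58, -0.75 and -0.70 in Col-0. LHCB4.1 and LHCB4.2 missed it in both, with first steps of -1.38 and -1.52 in C24 and of -1.01 and -1.20 in Col-0. Averaged over stages, 1 of the 8 was called higher in C24, 5 were called lower and 2 were not called. The limma test used is described with the accession differences. Of all probe sets 20% were called higher and 13.3% lower. Of those with a group mean of at least 6, refitted alone, 51% were called. Nothing is read from the calls of these few genes, nor from those of the lists below.

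Of 19 chlorophyll synthesis loci 6 were measured, AT1G74470 was a member, and CHLM, a methyltransferase of the pathway, had the late fall but first steps of -1.51 in C24 and -0.96 in Col-0. The averaged accession test called 0 of these 6 higher and 2 lower in C24, against 20% and 13.3% of all probe sets. Of 18 Calvin cycle loci 3 were measured and 0 were members, with 1 called lower in C24 and 2 not called. The nearest was PRK, phosphoribulokinase, which kept its level in the first step (-0.04 in C24 and -0.09 in Col-0) and had second steps of -0.77 in C24 and -0.90 in Col-0. Of 69 probe sets with 1 gene of the plastid genome, 0 were members, and their second-step medians were 0.05 in C24 and 0.06 in Col-0. Yet atpB, a plastid gene by its symbol, missed the second-step margin only narrowly, with -0.798 in C24 and -1.15 in Col-0.

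Late fallers were also absent from the measured genes of the other lists, of which few loci had a probe set with 1 gene. These were 8 of 35 loci for plastid fatty acid synthesis, 5 of 23 for seed coat mucilage and cellulose, 3 of 16 for seed coat flavonoids, 4 of 25 for DNA replication and mitosis, 5 of 25 for sucrose and starch, 3 of 11 for seed maturation regulators and 10 of 20 for reference genes. Flavonoid genes and replication genes had large first steps, with medians of -1.88 and -1.91 in C24 and of -2.29 and -1.83 in Col-0, and the maturation regulators had positive steps. Called higher and lower in C24 on average over stages were 3 and 1 of the fatty acid genes, 0 and 1 of the mucilage genes, 0 and 1 of the flavonoid genes, 0 and 3 of the replication genes, 1 and 3 of the sucrose and starch genes, 2 and 0 of the maturation regulators and 2 and 1 of the reference genes. Over all probe sets, 20% were called higher and 13.3% lower, and nothing is read from these counts. The lists for acyl desaturation, amino acid transport and cutin had no locus with a probe set of its own and are not analysed here. Markers of endosperm (2 of 11 measured) and of the silique wall (3 of 7) included no member, and the endosperm pair stayed at a mean signal of 3.81 to 3.94, near the floor, in all 6 groups.

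Transport proteins gave 6 members, with second-step medians of -1.13 in C24 and -1.01 in Col-0. SWEET1, a sugar carrier of the plasma membrane, gave 9.03, 9.03 and 9.37 at 8-9 d, 9.22, 9.19 and 9.08 at 10-11 d, and 7.62, 8.04 and 7.82 at 12-13 d in C24. In Col-0 it gave 9.15, 9.12 and 9.16, then 8.95, 8.83 and 8.53, then 7.36, 7.34 and 7.31, level with C24 at first and below it without overlap from 10-11 d. TMT2, which loads sugar into the vacuole, went the other way, with means of 8.78 ± 0.08, 8.43 ± 0.07 and 7.15 ± 0.07 in C24 and of 8.71 ± 0.12, 8.65 ± 0.10 and 7.69 ± 0.04 in Col-0 (SD, n = 3 each). Its C24 minus Col-0 difference was 0.07 at 8-9 d and -0.54 at 12-13 d.

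AT3G21670, of the nitrate transporter family, had a second step of -1.19 in C24 and -0.81 in Col-0, where it lay close to the threshold. AT1G23000, which carries a heavy-metal-associated domain, had first steps of -0.21 in C24 and 0.31 in Col-0 and second steps of -1.08 in C24 and -1.07 in Col-0. AT2G41190, of an amino acid transporter family, had second steps of -0.85 in C24 and -1.01 in Col-0. AT4G09160, of the SEC14 lipid-transfer type, averaged 7.65 ± 0.14, 7.37 ± 0.05 and 6.52 ± 0.10 in C24 and 7.46 ± 0.16, 7.31 ± 0.05 and 6.31 ± 0.14 in Col-0 (SD, n = 3 each).

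Genes tied to calcium and calmodulin gave 5 members, among them AT1G12080. The calmodulin-binding IQD proteins, which sit on microtubules and membranes, gave iqd21 and IQD28. The first of these averaged 9.23 ± 0.25, 9.36 ± 0.17 and 8.19 ± 0.23 in C24 and 8.82 ± 0.24, 9.25 ± 0.09 and 7.62 ± 0.07 in Col-0 (SD, n = 3 each), with second steps of -1.16 in C24 and -1.63 in Col-0. IQD28 declined over both intervals, with first steps of -0.65 in C24 and -0.54 in Col-0 and second steps of -0.86 in C24 and -0.94 in Col-0. AT3G10190, a calmodulin-like protein, had second steps of -1.27 in C24 and -1.52 in Col-0, and AT1G51570, with C2 domains that bind membranes in the presence of calcium, of -1.42 in C24 and -1.27 in Col-0.

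Hormone, lipid and secondary metabolism gave 7 members including AT1G73600. GH3.9 belongs to the family that joins amino acids to auxin and other acids. It gave 10.67, 10.91 and 10.80 at 8-9 d, 10.83, 10.88 and 10.79 at 10-11 d, and 9.40, 9.42 and 9.19 at 12-13 d in C24. In Col-0 it gave 11.37, 11.01 and 11.35, then 11.78, 11.75 and 11.50, then 10.79, 10.60 and 10.46. Col-0 was higher without overlap at each stage, and the second step was -1.49 in C24 (2.81-fold lower) and -1.06 in Col-0 (2.09-fold lower).

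GSTU20, a glutathione transferase, averaged 11.75 ± 0.13, 11.30 ± 0.08 and 10.28 ± 0.09 in C24 and 11.38 ± 0.11, 11.35 ± 0.11 and 9.93 ± 0.16 in Col-0 (SD, n = 3 each). AT3G11180, of the oxygenases that hydroxylate and so inactivate jasmonate, had second steps of -1.04 in C24 and -0.98 in Col-0. UGT73B1, a glycosyltransferase, had second steps of -1.33 in C24 and -1.27 in Col-0, and AT2G03750, of the sulfotransferase family, of -1.28 in C24 and -1.40 in Col-0. AT3G02590, related to the sterol C5-desaturase, lay near the threshold with -0.84 in C24 and -0.81 in Col-0, and was a member in 14 of the 18 analyses without 1 array.

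Regulators of transcription and protein turnover gave 5 members, with second-step medians of -1.14 in both accessions. ULT1, a trithorax-type regulator that limits the size of shoot and floral meristems, averaged 9.64 ± 0.13, 9.08 ± 0.21 and 8.06 ± 0.04 in C24 and 9.89 ± 0.07, 9.32 ± 0.16 and 8.03 ± 0.23 in Col-0 (SD, n = 3 each). AT1G26680, a B3-domain DNA-binding protein, was lower in C24 without overlap at every stage. Its C24 arrays gave 8.05, 7.62 and 7.64, then 7.40, 7.45 and 7.20, then 6.55, 6.19 and 5.91, and its Col-0 arrays 8.11, 8.22 and 8.39, then 8.02, 8.05 and 8.05, then 7.24, 6.92 and 6.95. AT3G15680, a zinc finger protein, had second steps of -1.28 in C24 and -1.78 in Col-0. AT2G37950, with a RING-type zinc finger, had second steps of -1.51 in C24 and -1.14 in Col-0. AT1G80450, of the VQ-motif family, whose proteins bind WRKY transcription factors, had a second step of -0.85 in both accessions and was a member in 12 of the 18 analyses without 1 array.

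Membrane, cytoskeletal and other proteins gave the remaining 4 with a role. HVA22C, of a family named after an abscisic acid-induced barley gene, had first steps of -0.25 in C24 and 0.23 in Col-0 and second steps of -1.53 in C24 and -1.81 in Col-0. Its 12-13 d arrays spread widely, with SDs of 0.40 in C24 and 0.47 in Col-0. AT1G07750, of the cupin family, had second steps of -0.96 in C24 and -1.24 in Col-0, AT3G07540, a formin that nucleates actin filaments, of -0.93 in C24 and -0.90 in Col-0, and AT5G63070, of the ribosomal S19 family, of -0.82 in C24 and -1.30 in Col-0.

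No role is given here for the other 13 members with 1 gene, whose second steps had medians of -1.07 in C24 and -1.10 in Col-0. Beside AT1G62070, the largest falls were those of AT3G48200, AT4G33600, AT1G64800 and AT3G13175. AT3G48200 averaged 7.77 ± 0.18, 7.28 ± 0.14 and 5.35 ± 0.09 in C24 and 7.80 ± 0.06, 7.44 ± 0.03 and 5.47 ± 0.21 in Col-0 (SD, n = 3 each), so the accessions followed the same course. AT4G33600 gave 9.69, 9.96 and 9.99, then 9.36, 9.12 and 9.08, then 7.18, 7.40 and 7.17 in C24, and 10.12, 10.06 and 10.15, then 9.70, 10.04 and 9.89, then 8.97, 8.45 and 8.30 in Col-0. C24 was lower without overlap throughout, and the C24 minus Col-0 difference reached -1.32 at 12-13 d. AT1G64800 had second steps of -1.81 in C24 and -1.35 in Col-0, and AT3G13175 of -1.63 in C24 and -1.53 in Col-0. The second steps of the 74 members that the platform annotation does not list ranged from -1.97 to -0.80 in C24 and from -2.34 to -0.81 in Col-0.

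The accession difference averaged over the 3 stages was not used to choose the members, and limma tested it over all 22746 probe sets. Its error is independent of those of the stage differences in this balanced design, but its value is not, since a gap between accessions at 12-13 d alone enters the average. It was called at a Benjamini-Hochberg adjusted p under 0.05 for 65 of 144 late fallers (45.1%), against 33.3% of all probe sets. Higher in C24 were 33 members, where 20% of all probe sets were called higher, and lower were 32, where 13.3% were called lower. Brightness bears on that comparison: among the 12582 probe sets with a group mean of at least 6, refitted alone, 51% were called and 75 of the 144 members (52.1%), a share close to that background. The median difference over the members was 0.01 on the log2 scale and its median size 0.157, against 0.03 and 0.101 over all probe sets. Called differences of at least 0.5 were found for 14 members (9.72%, against 6.37% of all probe sets) and of at least 1 for 2. The share of all probe sets called with at least 1 was not computed.

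Called members with 1 gene numbered 34 of 68, of which 15 were higher and 19 lower in C24. Beside this stand the 33.3% of all probe sets called and the 51% of those with a group mean of at least 6, refitted alone. Nothing is read from the count itself. Among members with 1 gene, the largest called differences toward C24 were those of 2 pectin-related genes. Over all 144 members the difference ranged from -1.23 to 0.93, and the highest value belonged to a probe set without a single gene. AT1G23205 averaged 8.78 in C24 and 8.10 in Col-0 over the stages, a difference of 0.67 ± 0.07 (SE, adjusted p = 1.41e-07), higher in C24 at all 3 stages. AT3G61490 averaged 6.24 in C24 and 5.64 in Col-0 (0.60 ± 0.06, adjusted p = 8.67e-08). AT3G54400, AT1G73600 and AT4G28030, for which no role is given here, followed with differences of 0.44 ± 0.08, 0.44 ± 0.07 and 0.42 ± 0.08 (SE). Their adjusted p-values from limma were 0.000174, 3.68e-05 and 0.000446. For AT1G73600 most of the averaged difference came from 12-13 d, with stage differences of 0.02, 0.21 and 1.08.

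Toward Col-0 the differences reached further. AT1G62070 averaged 11.83 in C24 and 13.06 in Col-0, a difference of -1.23 ± 0.08 (SE, adjusted p = 7.68e-11). The peroxidase AT2G22420 averaged 5.76 in C24 and 6.97 in Col-0 (-1.21 ± 0.09, adjusted p = 5.74e-10). These 2 are the members called with a difference of at least 1, and they differ in course: the stage differences of AT2G22420 were -1.33, -0.95 and -1.35, and those of AT1G62070 -0.59, -0.85 and -2.25. GH3.9 differed by -0.86 ± 0.06 (adjusted p = 1.08e-09), AT4G33600 by -0.75 ± 0.08 (adjusted p = 1.94e-07), AT1G26680 by -0.66 ± 0.08 (adjusted p = 1.45e-06) and EXPB3 by -0.66 ± 0.09 (SE, adjusted p = 8.01e-06). All 6 were lower in C24 at every stage.

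**Figure D5:**
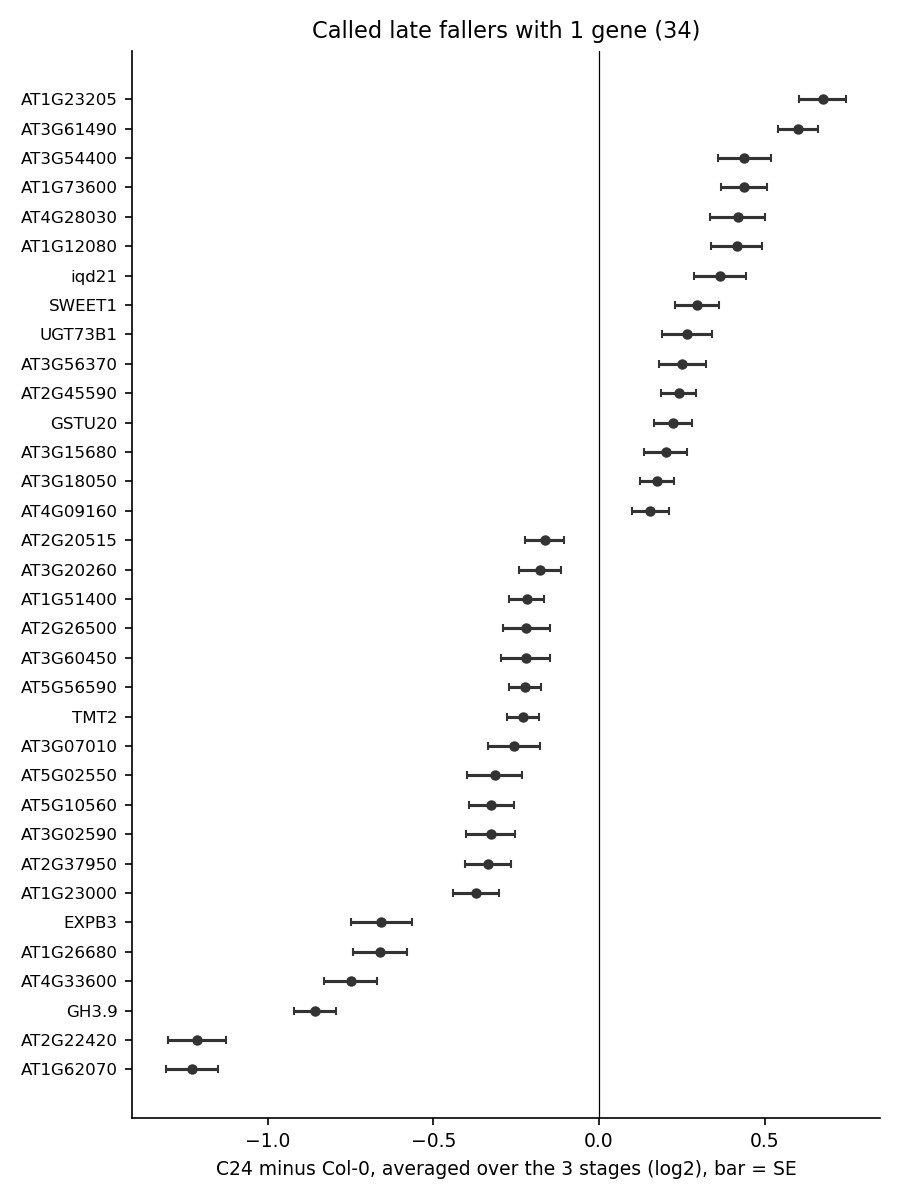
Difference between C24 and Col-0 averaged over the 3 stages (log2, point, with its SE as a bar) for the 34 late fallers with 1 gene that limma called. The 15 genes right of 0 were higher in C24 and reach 0.67 (AT1G23205), and the 19 left of 0 were lower in C24 and reach -1.23 (AT1G62070).

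By role, called differences fell on both sides. The groups are small and 33.3% of all probe sets were called, so the counts per role are given as description only. Among the 7 leucine-rich repeat receptor kinases only AT3G56370 was called, higher in C24 by 0.25 (adjusted p = 0.00795 in limma). Of the 5 pectin genes 2 were called higher and 1 lower, AT3G07010 by -0.26 (adjusted p = 0.0147). Of the 8 other wall and secreted proteins 1 was called higher and 4 lower, of the 6 chloroplast genes 0 and 2 (AT1G51400 by -0.22 and AT2G26500 by -0.22, adjusted p = 0.00307 and 0.0206), and of the 6 transport genes 2 and 2. In that last group SWEET1 was higher in C24 by 0.30 ± 0.07 and TMT2 lower, the difference being -0.23 ± 0.05 (SE, adjusted p = 0.00142 and 0.00093). Of the 5 calcium genes 2 were called higher and 0 lower, of the 7 metabolic genes 3 and 2, of the 5 regulators 1 and 2, of the 4 membrane, cytoskeletal and other genes 0 and 0, and of the 13 without a role 2 and 6. Of these calls, AT2G20515 (no role) was lost in 13 of the 18 analyses that each left out 1 array, AT4G09160 (transport) in 12 and AT3G20260 (no role) in 8.

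At the edge of the rule, members and non-members differed little. The 5 genes nearest inside the second-step threshold were AT5G37790 (-0.80 in C24, -0.85 in Col-0), AT3G02590 (-0.84 in C24, -0.81 in Col-0), AT3G21670 (-1.19 in C24, -0.81 in Col-0), AT5G63070 (-0.82 in C24, -1.30 in Col-0) and AT4G28030 (-0.83 in C24, -1.07 in Col-0). The 5 nearest outside were atpB (-0.80 before rounding above the threshold in C24, -1.15 in Col-0), AT1G30440 (-0.78 in C24, -0.85 in Col-0), AT4G29360 (-0.78 in C24, -1.20 in Col-0), PRK (-0.77 in C24, -0.90 in Col-0) and AT5G13980 (-0.95 in C24, -0.77 in Col-0). The 68 loci were scattered over the genome: 0 pairs were direct neighbours, and the closest pair, ULT1 and EXPB3, lay 6 genes apart.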

How the data were processed

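RNA of pooled developing seeds was measured on 18 Affymetrix arrays. The deposited values are log2 signals per probe set that the authors computed with RMA, per the submitters' processing notes (version: not given in the sources used). RMA equalises the arrays' distributions and compresses changes near the floor and top of the scale. The files give no read depth; the number of arrays, 3 a group, limits precision.

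Of 22810 probe sets, 64 controls were left out. Groups came from the sample titles, and 3-array means gave the stage differences and the members. Members and gene lists were chosen with earlier results of these data known. The 6 group means were fitted with limma 3.58.1 in R 4.3.3, and the mean of the C24 stages minus that of the Col-0 stages was tested with empirical Bayes moderation and Benjamini-Hochberg adjustment over 22746 probe sets; it was tested on simulated data. No value filter was set. Genes were named from the platform annotation (13513 probe sets with 1 gene, 503 with several, 8730 not listed), with symbols of the RefSeq gene table (assembly TAIR10.1).

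The text names the 12 largest mean falls, the 5 highest levels at 10-11 d, the 5 highest and lowest called accession differences, the 5 nearest each side of the threshold, members in the lists and, chosen after their values were seen, members grouped by role. Alternatives were another quantile normalization, scaling to reference genes, medians, other thresholds, a signal filter, a trended robust fit, a replicate block and leaving out each array.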

Additional observations from a re-analysis of the deposited data

Results flagged for a closer look

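For 2 late fallers the first step ran in opposite directions in the accessions, and this difference was not tested. In each accession all 3 arrays at 10-11 d lay on the same side of all 3 arrays at 8-9 d. The rule used the first step, and the share of all probe sets with this pattern was not computed. Nothing is read from the count. AT3G15680, a zinc finger protein, had a first step of -0.35 in C24, where the arrays gave 8.35, 8.32 and 8.11 at 8-9 d and 8.02, 7.85 and 7.87 at 10-11 d, and of 0.37 in Col-0, where they gave 7.78, 7.68 and 7.78 and then 8.08, 8.26 and 8.03. AT3G02590, related to the sterol C5-desaturase, had a first step of -0.57 in C24 (7.73, 7.90 and 7.83, then 7.38, 7.11 and 7.26). In Col-0 its first step was 0.17 (7.68, 7.55 and 7.69, then 7.70, 7.99 and 7.73). The Col-0 arrays nearly met, with 7.69 the highest at 8-9 d and 7.70 the lowest at 10-11 d.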

How the results depend on the processing

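The number of members moves with the margin: 72 probe sets met the rule at a second step of -1 or lower, 286 at -0.6 or lower, and 77 with a first-step window of -0.5 to 0.5. Leaving out each array in turn gave 132 (without Col-0 10-11 d replicate 2) to 162 members (without C24 10-11 d replicate 3), of which 129 to 143 were among the 144, and 93 were members each time. The count of members called between accessions was 57 to 70 over the same runs and that over all probe sets 7000 to 7647. Another quantile normalization left 124 members, 123 of them shared, and scaling to 10 reference probe sets 146, 120 of them shared. Group medians in place of means gave 138, 116 of them shared. The scaling to reference probe sets raised the median first step of all probe sets by 0.11 in C24 and 0.13 in Col-0. It raised their median second step by 0.01 in C24 and 0.09 in Col-0. A replicate block called 68 members, 37 higher and 31 lower in C24, and 7644 probe sets. Same-numbered arrays of different groups had deviations that correlated at -0.156 to 0.242 (median 0.03). Differently numbered ones correlated at -0.255 to 0.192 (median -0.005). Correlations over 0.1 were seen in 9 of 45 same-numbered pairs and 9 of 90 others. With 3 arrays a group these values cannot settle whether the numbers pair the arrays. Of 34 named called genes none changed direction, and 5 lost the call in some of the 18 runs without 1 array: AT2G20515 in 13, AT4G09160 in 12 (and with another quantile normalization), AT3G20260 in 8, AT3G60450 in 4 and AT2G26500 in 1, without Col-0 8-9 d replicate 1 (adjusted p = 0.0517 in limma).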
